A study of Mus musculus with 58 samples.

Results

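The choroid plexus is the epithelial tissue that hangs in the brain ventricles and makes cerebrospinal fluid. Its epithelial cells carry large amounts of transcripts for secreted carriers, receptors and channels, some of which other brain cells also express. 8 genes known for high levels in this epithelium were followed here by their symbols: Ttr, Prlr, Aqp1, Tmem72, Clic6, Sostdc1, Kl and Enpp2. All 8 were found among the 18088 genes of the deposited table and were read in each of the 58 libraries.

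The libraries are polyadenylated RNA of prefrontal cortex from mice of the strain C57BL/6J at postnatal day 25. Mice heterozygous for a Tbl1xr1 knock-in (HT) and wild-type mice (WT) of both sexes were given fluoxetine, lithium or vehicle by way of maternal milk for 3 weeks, from postnatal day 3 to day 24. The 12 groups were HT fluoxetine, HT lithium, HT vehicle, WT fluoxetine, WT lithium and WT vehicle, each in females and males, with 5 libraries per group and 4 in each WT lithium group. The labels name no dam or litter, so litter and drug cannot be told apart. The labels do not say that each library is a separate animal, and p-values therefore measure the spread between libraries.

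Libraries held between 22.9 and 35.01 M recovered reads (median 26.7 M). Tbl1xr1 itself, at a median of 2524 (2276 to 2747) in the 30 HT libraries and 2068 (1817 to 2279) in the 28 WT libraries, was higher in 29 of the 30 HT libraries than in any WT library. Xist and Ddx3y placed 58 of 58 libraries on the side of their labelled sex. Cortical tissue was present throughout: none of 12 genes of cortical excitatory neurons fell below 219 normalised reads in any library. Values below are normalised read counts, which are reads divided by 1 size factor per library, unless another scale is named.

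2 libraries stood far above the others in most of the 8 genes, and they came from different genotypes, drugs and sexes. They were replicate 1 of the HT lithium males and replicate 4 of the WT vehicle females, called HT lithium male 1 and WT vehicle female 4 below. In 7 of the 8 genes these were the 2 highest of all 58 libraries. Together they held 98.3% of the summed Ttr values of the series, 50.4% of Clic6, 50.2% of Prlr, 40.2% of Kl, 37.6% of Sostdc1 and 21.3% of Tmem72, and 10.8% of Enpp2. The 2 highest Aqp1 libraries, of which WT vehicle female 4 is 1, held 14.5%. Of all 16606 genes tested, 0.608% (101 genes) had the same 2 libraries at the top. In bulk tissue, more cells of a type and more RNA per cell cannot be told apart, and this holds for each result below.

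**Figure D1:**
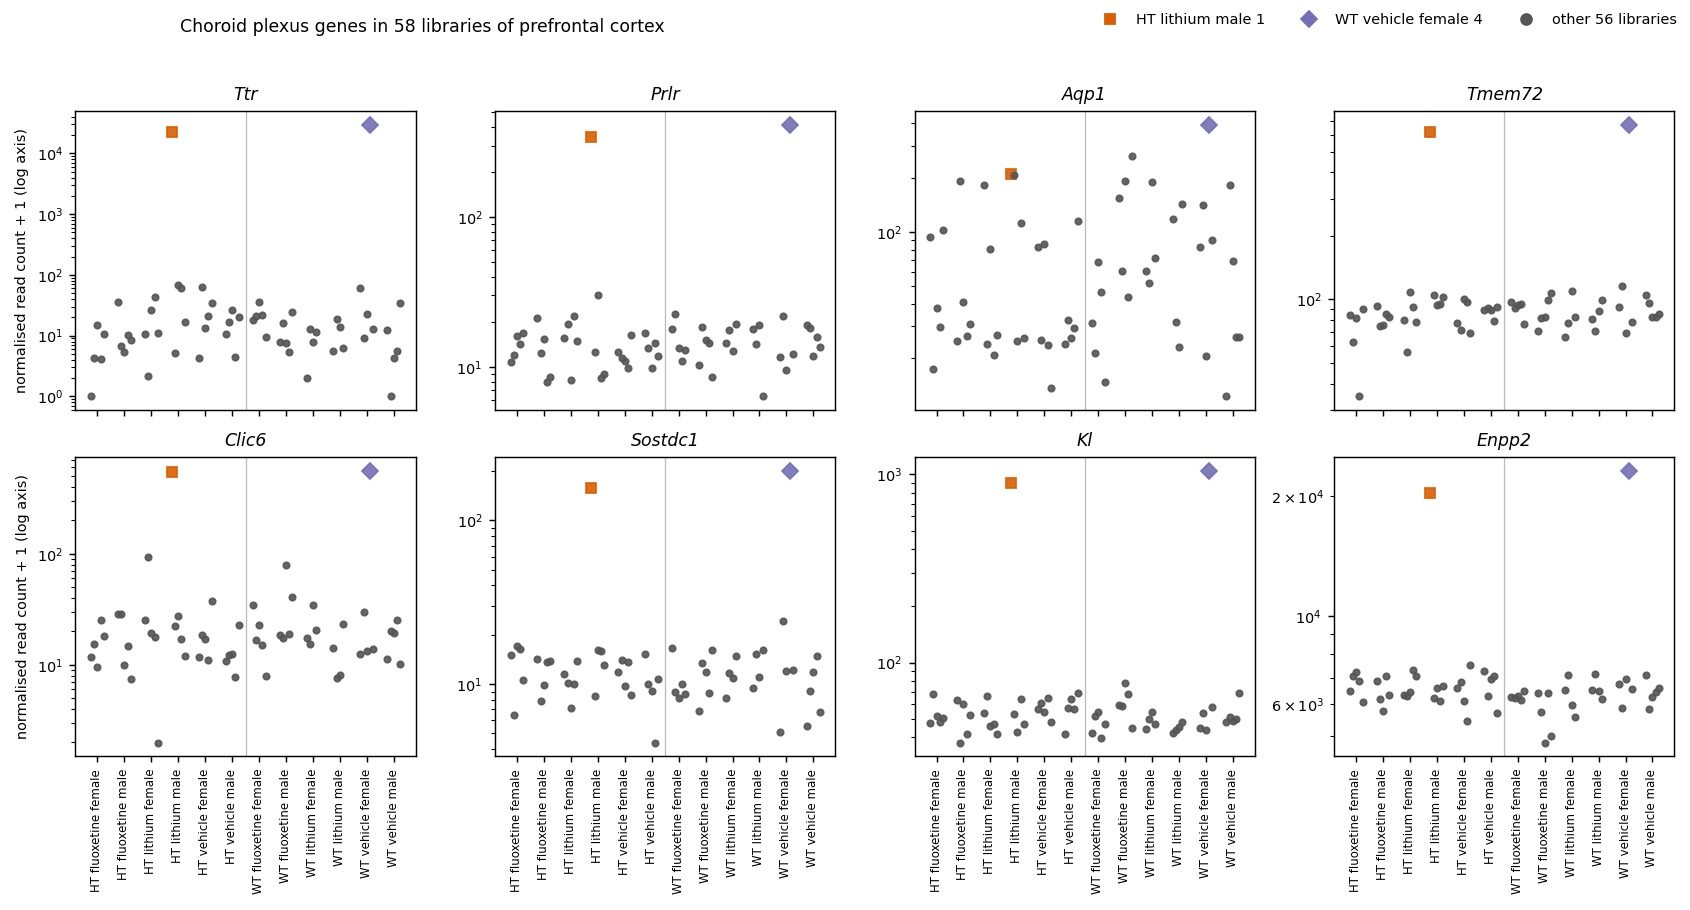
Normalised read count + 1 (log axis) of each of the 8 genes in 58 libraries, by group, with 1 point per library and no average drawn. HT lithium male 1 (square) and WT vehicle female 4 (diamond) stand above all other libraries in 7 panels, and in the Aqp1 panel the other 56 libraries spread from 11.3 to 264.

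Ttr encodes transthyretin, which carries thyroid hormone and retinol-binding protein in cerebrospinal fluid. It lies on chromosome 18 at 20665280-20674321 on the plus strand (GRCm38, GENCODE M21, as for all positions here). Ttr reached 22675 in HT lithium male 1 and 29769 in WT vehicle female 4, against a median of 10.8 (0 to 66.9) in the other 56 libraries. That is 2097-fold over this median in HT lithium male 1 and 2753-fold in WT vehicle female 4. Ranked by reads among all genes of its library, Ttr stood at place 116 in HT lithium male 1 and at place 60 in WT vehicle female 4. Ttr had no read in HT fluoxetine female 1 and WT vehicle male 2, which allows up to 3.24 normalised reads in the first of these and 3.03 in the other, for counting error only.

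The other libraries of each group showed how far it stood apart. In the HT lithium males, Ttr was 22675, 4.25, 66.9, 58.8 and 16.0 in replicates 1 to 5. In the WT vehicle females it was 59.3, 8.09, 21.9, 29769 and 12.1. The top library exceeded the next of its group 339-fold in the HT lithium males and 502-fold in the WT vehicle females, and the other 4 libraries of each group lay between 4.25 and 66.9 in the HT lithium males and between 8.09 and 59.3 in the WT vehicle females.

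Kl encodes klotho, a membrane protein that is also shed into cerebrospinal fluid and serves as co-receptor for fibroblast growth factor 23. It lies on chromosome 5 at 150952607-150993817 on the plus strand. Kl was 899.7, 52.1, 41.7, 63.1 and 46.1 in the HT lithium males. In the WT vehicle females it was 43.6, 53.1, 42.6, 1045 and 57. Against a median of 50.2 (36.5 to 76.4) in the other 56 libraries, Kl was 17.9-fold higher in HT lithium male 1 and 20.8-fold higher in WT vehicle female 4.

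Prlr encodes the prolactin receptor, which binds the pituitary hormone prolactin and is abundant in this epithelium. It lies on chromosome 15 at 10177238-10349180 on the plus strand. Prlr reached 342 in HT lithium male 1 and 413 in WT vehicle female 4, against a median of 12.9 (5.36 to 29.0) elsewhere. Sostdc1, on chromosome 12 at 36314139-36318452 on the plus strand, encodes a secreted inhibitor of BMP and Wnt signals. It stood at 157 in HT lithium male 1 and 200 in WT vehicle female 4, against a median of 10.3 (3.39 to 23.1). Both genes rested on few reads outside the 2 libraries, with a median of 13 raw reads for Prlr and 10 for Sostdc1 over all 58.

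Clic6 belongs to the chloride intracellular channel family and lies on chromosome 16 at 92485736-92541243 on the plus strand. It was 540 in HT lithium male 1 and 560 in WT vehicle female 4, against a median of 16.3 (0.992 to 92.1) in the others. HT lithium female 2, at 92.1, was the only other library above 5 times the Clic6 median of the series, and it did not exceed 5 times the median in any of the other 7 genes. Tmem72 encodes a transmembrane protein of this epithelium and lies on chromosome 6 at 116679063-116716913 on the minus strand. It was 620 in HT lithium male 1 and 671 in WT vehicle female 4, against a median of 84.6 (33.8 to 114).

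Enpp2 encodes autotaxin, the secreted enzyme that makes lysophosphatidic acid, and oligodendrocytes express it as well. It lies on chromosome 15 at 54838901-54952892 on the minus strand. Enpp2 was 20404 in HT lithium male 1 and 23175 in WT vehicle female 4, against a median of 6439 (4803 to 7543). The fold over this median, 3.17 in HT lithium male 1 and 3.6 in WT vehicle female 4, was the smallest of the 8 genes, while the excess over it was large, at 13965 normalised reads in HT lithium male 1 and 16736 in WT vehicle female 4.

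Aqp1 encodes the water channel of the apical membrane of this epithelium and lies on chromosome 6 at 55336432-55348555 on the plus strand. Aqp1 was 209 in HT lithium male 1 and 394 in WT vehicle female 4, but the other 56 libraries ran from 11.3 to 264 around a median of 41.3. WT vehicle female 4 was the highest library, WT fluoxetine male 5 the second and HT lithium male 1 the third.

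Per kilobase of exon, Ttr was far ahead of the others in the 2 libraries, at 19119 normalised reads per kb in HT lithium male 1 and 25100 in WT vehicle female 4. Enpp2 followed at 3531 per kb in HT lithium male 1 and 4010 in WT vehicle female 4. The remaining 6 genes lay between 22.3 and 138 per kb in HT lithium male 1 and between 26.9 and 150 per kb in WT vehicle female 4. Over the other 56 libraries the order was another one: Enpp2 had a median of 1114 per kb, Aqp1 15.7, Ttr 9.12 and the other 5 genes between 0.839 and 5.80.

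HT lithium male 1 was lower than WT vehicle female 4 in all 8 genes. The ratio of HT lithium male 1 to WT vehicle female 4 was 0.762 for Ttr (95% counting interval 0.748 to 0.776), 0.861 for Kl (0.782 to 0.947) and 0.880 for Enpp2 (0.863 to 0.898). It was 0.828 for Prlr (0.709 to 0.967) and 0.784 for Sostdc1 (0.624 to 0.985). For Tmem72 (0.925, 0.822 to 1.04) and Clic6 (0.965, 0.849 to 1.10) the interval included 1. Aqp1 had the lowest ratio, 0.531 (0.442 to 0.635). These intervals cover counting error only and compare 2 libraries, not conditions.

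Below the 2 libraries, the other high values were spread over several libraries. Besides them, Ttr exceeded 5 times its median of 11.6 over all 58 libraries in HT lithium male 3 (66.9), HT vehicle female 2 (61.8), WT vehicle female 1 (59.3) and HT lithium male 4 (58.8). None of these 4 libraries exceeded 5 times the median in another of the 8 genes, but HT lithium male 3 was also the third highest for Prlr, at 29.0. WT vehicle female 2 was the third highest for Tmem72 (114) and for Sostdc1 (23.1). Over 58 libraries, the 21 pairs among the 7 genes without Aqp1 had Pearson's r between 0.578 and 0.859 on the log2(value + 1) scale, with a median of 0.761. Over the other 56 libraries the same pairs ran from -0.429 to 0.297, with a median of -0.01. All of these correlations share the libraries and their depth, and the values over 58 libraries rest on the 2 high points. For Prlr and Sostdc1, which vary little beyond counting error among the 56, a weak shared trace could go unseen at this depth.

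How much the genes varied among the other 56 libraries differed from gene to gene. The variance of raw reads over their mean is 1 for pure counting error at equal depth. This ratio was 1.28 for Prlr, 1.30 for Sostdc1, 1.95 for Kl and 3.22 for Tmem72. It was 10.02 for Clic6, 16.6 for Ttr, 55.0 for Aqp1 and 152 for Enpp2. Raw reads were not corrected for depth here, and size factors ran from 0.787 to 1.23. Differences in depth therefore add to the ratio, more so for genes with many reads such as Enpp2. In relative terms Enpp2 was the steadiest, with a coefficient of variation of 8.74%, followed by Tmem72 at 16.9% and Kl at 17.4%, and Ttr was the least steady at 98.1%. With the 2 libraries included, the coefficient of variation was 529% for Ttr, 204% for Kl and 41.6% for Enpp2.

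The windows around the transcription start, from 250 bases before to 50 after it, were read for 4 of the 8 genes from RefSeq (GRCm38.p6). Ttr was left out of this search. No window was available for Clic6, Sostdc1 and Enpp2, so the 4 genes were not chosen by their pattern. Of these 4, Kl, Tmem72 and Prlr share the 2-library pattern and Aqp1 departs from it. Kl was read at chr5:150952357-150952656 on the plus strand, Tmem72 at chr6:116716709-116717008 on the minus strand, Aqp1 at chr6:55336049-55336348 on the plus strand, and Prlr at the second of its 3 listed starts, chr15:10223656-10223955 on the plus strand. Capitals mark the single motif match.
Kl: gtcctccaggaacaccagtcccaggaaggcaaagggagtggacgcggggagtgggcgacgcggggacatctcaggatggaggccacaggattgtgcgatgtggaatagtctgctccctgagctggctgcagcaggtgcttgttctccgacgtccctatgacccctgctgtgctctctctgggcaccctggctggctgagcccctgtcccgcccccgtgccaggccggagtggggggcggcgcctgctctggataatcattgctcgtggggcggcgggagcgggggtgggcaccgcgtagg
Tmem72: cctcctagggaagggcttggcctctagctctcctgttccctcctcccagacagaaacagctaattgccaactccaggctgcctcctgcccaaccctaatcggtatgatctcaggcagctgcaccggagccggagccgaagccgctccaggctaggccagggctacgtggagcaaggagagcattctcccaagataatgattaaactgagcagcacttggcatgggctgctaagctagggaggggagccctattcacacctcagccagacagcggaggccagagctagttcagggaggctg
Prlr: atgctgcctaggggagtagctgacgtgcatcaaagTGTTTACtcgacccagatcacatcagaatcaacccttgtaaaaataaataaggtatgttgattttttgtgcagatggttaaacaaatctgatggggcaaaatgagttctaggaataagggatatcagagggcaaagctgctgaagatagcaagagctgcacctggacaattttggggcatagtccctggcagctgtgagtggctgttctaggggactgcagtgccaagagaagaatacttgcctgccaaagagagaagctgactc
Aqp1: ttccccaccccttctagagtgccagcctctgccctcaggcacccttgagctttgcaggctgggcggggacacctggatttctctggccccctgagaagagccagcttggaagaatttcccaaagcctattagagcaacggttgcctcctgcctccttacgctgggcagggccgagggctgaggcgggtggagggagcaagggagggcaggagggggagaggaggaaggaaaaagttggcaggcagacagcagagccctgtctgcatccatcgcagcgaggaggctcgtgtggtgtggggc
6 windows, with all 3 of Prlr, were searched on both strands for TAATCC (bound by OTX2, a factor of choroid plexus development), TGTTTAC (bound by FOX factors) and TATAAA (the TATA box). Within these windows the only match was TGTTTAC, in the window shown for Prlr at position -215 from the start. It overlapped no other motif. Ttr, Clic6, Sostdc1 and Enpp2 were not searched. Of all 32851 mouse windows of this length, 7.06% held TAATCC, 3.65% TGTTTAC and 13.6% TATAAA. GC content was 67.3% for Kl, 62.7% for Aqp1, 59% for Tmem72 and 45.7% for the Prlr window shown.

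A wider list of choroid plexus genes followed the same 2 libraries. Of its 30 genes, 23 were measured, and in 19 of these (82.6%) HT lithium male 1 and WT vehicle female 4 were the 2 highest of 58. The same held for 0.608% of the 16606 genes tested and for 114 of the 18088 genes in the table, list genes included. Of the 23 measured genes, 21 were tested. The list was chosen with earlier results of these data known. Htr2c, a serotonin receptor that cortical neurons also express, was 1120 in HT lithium male 1, place 41 of 58, and 1971 in WT vehicle female 4, place 1. Slc31a1, a copper importer, was 1090 in HT lithium male 1 and 1355 in WT vehicle female 4, against a median of 927 (804 to 1054). Slc4a2, an anion exchanger, was 1005 in HT lithium male 1 and 1101 in WT vehicle female 4, against a median of 678 (530 to 885).

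**Figure D2:**
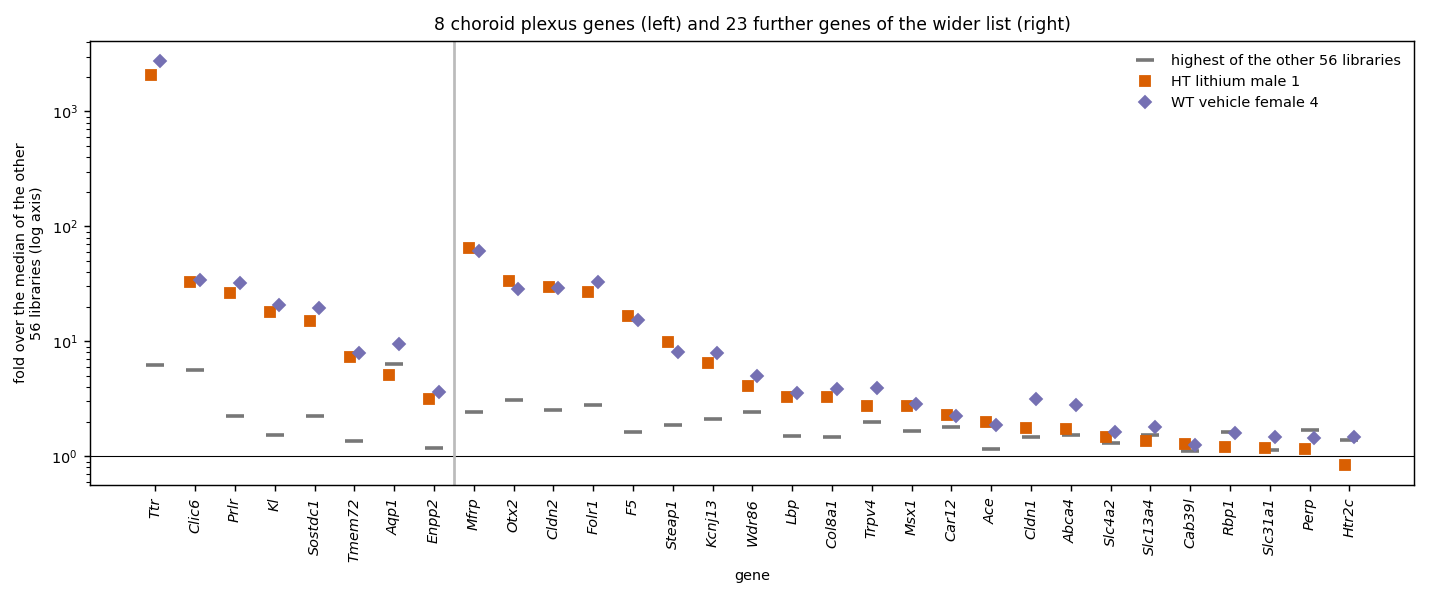
Fold over the median of the other 56 libraries (log axis) for the 8 genes and the 23 measured genes of the wider choroid plexus list, in HT lithium male 1 (squares) and WT vehicle female 4 (diamonds), with grey dashes at the highest of the other 56 libraries. Ttr stands at 2097 and 2753, and 19 of the 23 wider genes have both marks above the dash.

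The 10 genes most like the mean pattern of the 8 genes, by Pearson's r over 58 libraries on the log2(value + 1) scale, were Slc2a12 (0.835), Ace (0.829), Mfrp (0.824), Cldn2 (0.816), F5 (0.815), Kcnj13 (0.814), Drc7 (0.792), Folr1 (0.769), Col8a1 (0.760) and Lbp (0.744). Of these, 8 were on the wider list, and Slc2a12 and Drc7 were not. Mfrp, a membrane frizzled-related protein, was 352 in HT lithium male 1 and 330 in WT vehicle female 4, against a median of 5.42 (0.939 to 13.1). Folr1, the folate receptor that brings folate into cerebrospinal fluid, was 166 in HT lithium male 1 and 204 in WT vehicle female 4, against 6.17 (1.06 to 17.1). Cldn2, a tight junction protein of leaky epithelia, was 150 in HT lithium male 1 and 148 in WT vehicle female 4, against 5.10 (0 to 12.8). The medians of Mfrp, Folr1 and Cldn2 in the other 56 libraries lay below 10, the average level a gene needed to be tested. The 2 high libraries raise that average, so Mfrp, Folr1 and Cldn2 may have been kept because of them. Passing this minimum without the 2 libraries was checked only for the 8 genes. Over the other 56 libraries the 10 genes had r between -0.252 and 0.367 with the same mean pattern. The choice of the 10 was the same when group means were removed first. That is no independent check, since the 2 libraries lie in different groups and stay extreme within them.

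Markers of neighbouring tissue were read beside the 8 genes as summed levels. The sum of the 8 genes was 45848 in HT lithium male 1 and 56227 in WT vehicle female 4, against 5261 to 7764 in the others. Ependymal genes, which mark the ciliated lining of the ventricle, also had these libraries on top, with 1121 in HT lithium male 1 and 1056 in WT vehicle female 4, against a median of 374 (239 to 980). Of 10 ependymal genes measured, 3 had both libraries as the 2 highest. Ak7, a ciliary adenylate kinase named after its values were seen, was 119 in HT lithium male 1 and 25.3 in WT vehicle female 4, against a median of 5.69 (0 to 26.6).

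Oligodendrocyte genes summed to 230404 in HT lithium male 1 (place 5 of 58) and 244029 in WT vehicle female 4 (place 2), against a median of 134704 (91569 to 261418). Striatal projection neuron genes stood at 13336 in HT lithium male 1 (place 7) and 15609 in WT vehicle female 4 (place 5), against a median of 7425 (6282 to 24488). Cortical excitatory neuron genes stood at 68040 in HT lithium male 1 (place 19) and 56926 in WT vehicle female 4 (place 53), against a median of 66199 (52659 to 72304). The part of these cells in the values of the 8 genes was not tested. Leaving both libraries out cannot separate it, since that removes all these values at once.

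The 2 libraries differed in other markers. Leptomeningeal fibroblast genes summed to 9802 in HT lithium male 1, place 21, and to 14234 in WT vehicle female 4, place 2. Endothelial genes stood at 6699 in HT lithium male 1, place 46, and at 8911 in WT vehicle female 4, place 2. Blood genes stood at 5825 in HT lithium male 1, place 49, and at 10739 in WT vehicle female 4, place 12. Hippocampal genes were at place 51 in HT lithium male 1 and place 25 in WT vehicle female 4, and thalamic genes at place 27 and place 24 of the same libraries. The thalamic list shares Calb2 with the olfactory bulb list. WT vehicle male 2 was highest in both sums, with 10478 for thalamic and 29043 for olfactory bulb genes. The thalamic places are therefore not independent of the olfactory bulb list. Olfactory bulb genes summed to 1605 in HT lithium male 1, place 44, and to 5573 in WT vehicle female 4, place 26.

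**Figure D3:**
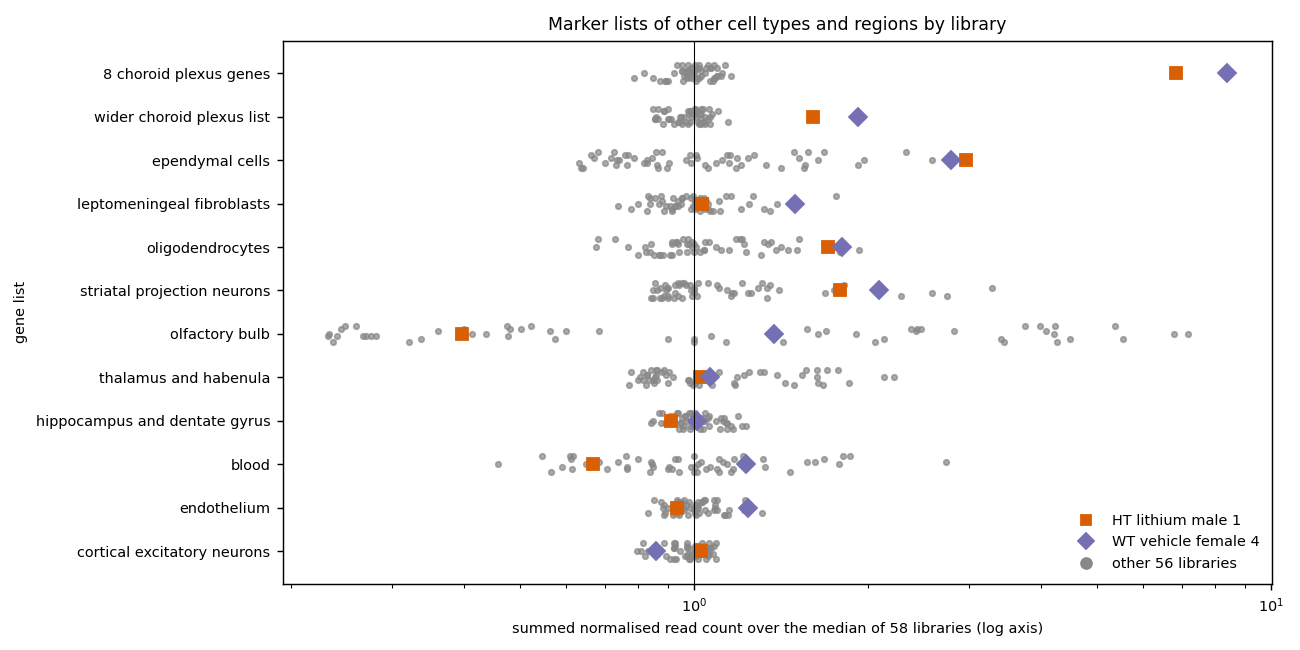
Summed normalised read count of each marker list over its median in 58 libraries (log axis), with 1 point per library. HT lithium male 1 (square) and WT vehicle female 4 (diamond) lead in the 8 genes, the wider list and the ependymal list, and the olfactory bulb list spreads most among the other 56 libraries, from 939 to 29043.

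Aqp1 varied with the olfactory bulb list among the libraries outside the 2. Over the 56 other libraries, Aqp1 had r = 0.925 (Spearman's rho 0.860) with the summed olfactory bulb genes on the log2 scale, and 0.840 (rho 0.794) over all 58. With each of the other 7 genes, Aqp1 had r between -0.610 and 0.366 over the 56, with a median of 0.06, and between 0.134 and 0.498 over all 58. Of the 10 libraries with the highest Aqp1, 7 were among the 10 with the highest olfactory bulb sum. Genes most like Aqp1 over 58 libraries, named after the values were seen, were Zic1 (r = 0.887), a transcription factor, Steap2 (0.886), and Slc18a2 (0.868), the vesicular monoamine transporter. HT lithium male 1 and WT vehicle female 4 lay above this relation, with 209 Aqp1 reads at a sum of 1605 in HT lithium male 1 and 394 at a sum of 5573 in WT vehicle female 4.

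Enpp2 followed the oligodendrocyte list loosely. Its r with the summed oligodendrocyte genes was 0.395 (rho 0.371) over the 56 other libraries and 0.488 (rho 0.432) over all 58. With the olfactory bulb sum it was -0.625 (rho -0.680) over the 56. Clic6 had r = 0.423 (rho 0.478) with the olfactory bulb sum over the 56. Its highest values among them were 92.1 in HT lithium female 2, 78.6 in WT fluoxetine male 3 and 39.7 in WT fluoxetine male 5. Striatal genes summed to 24488, 20481 and 6336 in these libraries, in the same order, against a median of 7425. The part of striatal cells in Clic6 was not tested. The points of each relation share library and depth, and these are descriptions without a test.

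**Figure D4:**
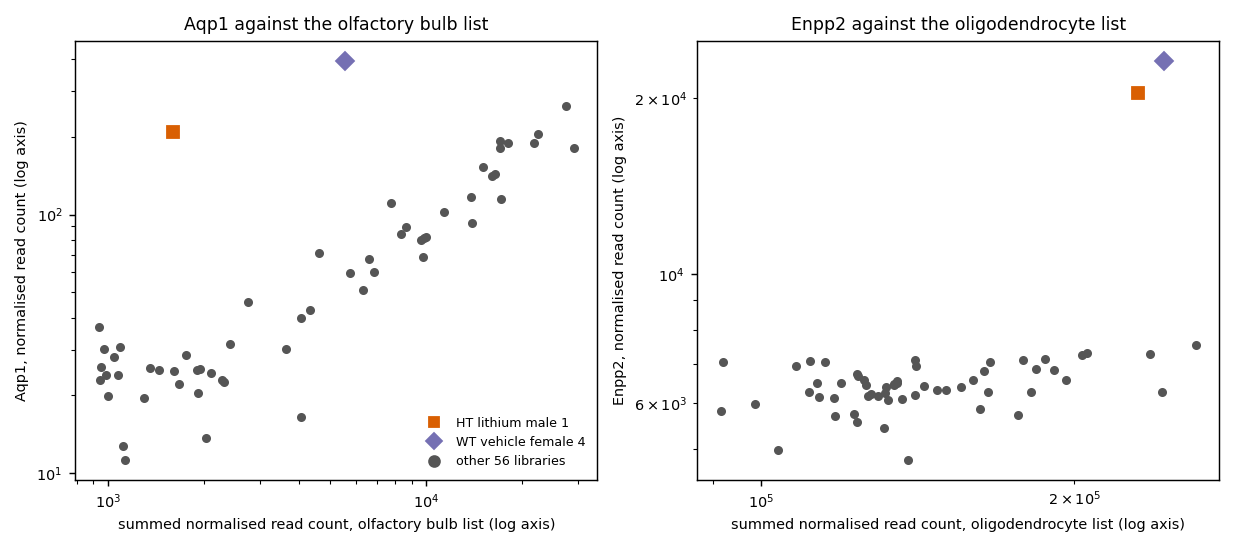
Aqp1 against the summed olfactory bulb genes (left) and Enpp2 against the summed oligodendrocyte genes (right), normalised read counts on log axes, with 1 point per library. The 56 other libraries form a band for Aqp1 (r = 0.925), and HT lithium male 1 (square) and WT vehicle female 4 (diamond) lie above that band. In the Enpp2 panel they are the 2 highest libraries.

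Genotype and drug were compared with limma across all 16606 genes, on the log2(value + 1) scale, and a gene counts as called at a Benjamini-Hochberg adjusted p below 0.05. None of the 8 genes was called in any of the 15 comparisons. DESeq2 counts below leave out Ttr and Kl, to which it gave no p. Counts of the 8 genes at an unadjusted p below 0.05 have no share of all genes beside them. They are therefore not read as a result about the 8 genes. All 8 passed the minimum mean of 10, also when computed without HT lithium male 1 and WT vehicle female 4. The median log2 change over all genes tested lay within 0.01 of 0 in each comparison.

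For HT against WT under vehicle, 0 of 8 genes were called, against 0.0181% of all genes tested. All 8 lay below 0, with a median log2 change of -0.48. Prlr had the smallest p, at -0.68 ± 0.44 (SE, limma adjusted p = 0.882, 10 HT and 10 WT libraries). The WT side of this comparison includes WT vehicle female 4. Without it and HT lithium male 1 the median was -0.03, with 3 of 8 above 0. Under an unadjusted p of 0.05, limma gave 0 of the 8, edgeR 6 and DESeq2 5, with lowest adjusted p of 0.709 for edgeR and 0.357 for DESeq2.

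For HT against WT under fluoxetine, 0 of 8 were called, against 0.994% of all genes. Neither of the 2 libraries is in these groups. The median was -0.18, with 2 of 8 above 0. Tmem72 had the smallest p, at -0.26 ± 0.25 (SE, limma adjusted p = 0.615). When HT lithium male 1 and WT vehicle female 4 were left out of the shared estimate of the spread, Enpp2 had the lowest adjusted p, 0.129, at 0.15 ± 0.05 (SE, limma). With all libraries, limma, edgeR and DESeq2 each gave 0 of 8 at an unadjusted p below 0.05. Without both, limma gave 2.

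For HT against WT under lithium, 0 of 8 were called, against 0.012% of all genes. The HT side includes HT lithium male 1, the median was 0.40 and 7 of 8 lay above 0. Ttr had the smallest p, at 2.06 ± 1.05 (SE, limma adjusted p = 0.915), with a lowest, median and highest level of 1.15, 20.8 and 22675 in 10 HT libraries and 1.04, 8.63 and 17.5 in 8 WT libraries. The 2 sets overlapped. Without both libraries the Ttr change was 1.07 ± 0.62 (SE, limma adjusted p = 0.856) and the median over the 8 was 0.07. At an unadjusted p of 0.05, limma gave 0 of the 8, edgeR 5 and DESeq2 3.

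For fluoxetine against vehicle in HT, 0 of 8 were called, against 0.0% of all genes, and neither of the 2 libraries is in these groups. The median was 0.03, with 5 of 8 above 0. Ttr had the smallest p, at -1.18 ± 0.99 (SE, limma adjusted p = 0.751). Without both libraries in the shared estimate of the spread, Ttr stood at -1.18 ± 0.57 (SE, limma adjusted p = 0.519). With all libraries, limma, edgeR and DESeq2 each gave 0 of 8 at an unadjusted p below 0.05. Without both, limma gave 1.

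For fluoxetine against vehicle in WT, 0 of 8 were called, against 0.367% of all genes. All 8 lay below 0, with a median of -0.34, and without both libraries the median was 0.05 with 6 of 8 above 0. Enpp2 had the smallest p, at -0.31 ± 0.15 (SE, limma adjusted p = 0.361). Its levels in the WT fluoxetine libraries were 6265, 6204, 6277, 6142 and 6457 in females and 6396, 5734, 4803, 6396 and 4984 in males. In the WT vehicle libraries they were 6730, 5865, 6949, 23175 and 6547 in females and 7118, 5817, 6244, 6430 and 6586 in males. The 2 sets overlapped, and without both libraries the change was -0.12 ± 0.06 (SE, limma adjusted p = 0.279). Below an unadjusted p of 0.05, limma gave 1 of the 8, edgeR 5 and DESeq2 4.

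For lithium against vehicle in HT, 0 of 8 were called, against 0.385% of all genes. All 8 lay above 0, with a median of 0.59, and without both libraries the median was 0.14 with 6 above 0. Prlr had the smallest p, at 0.64 ± 0.44 (SE, limma adjusted p = 0.609). Clic6 came closest to a call with another tool, at an adjusted p of 0.0513 in DESeq2. The unadjusted p was below 0.05 for 0 of the 8 in limma, 6 in edgeR and 4 in DESeq2.

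For lithium against vehicle in WT, 0 of 8 were called, against 0.0301% of all genes. The median was -0.43 with 1 of 8 above 0, and without both libraries it was -0.02 with 3 above 0. Kl had the smallest p, at -0.57 ± 0.38 (SE, limma adjusted p = 0.682). At an unadjusted p of 0.05, limma gave 0 of the 8, edgeR 4 and DESeq2 3. The 3 comparisons that hold WT vehicle libraries share WT vehicle female 4, and both that hold HT lithium libraries share HT lithium male 1, so the directions of the 8 genes in them are not independent.

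**Figure D5:**
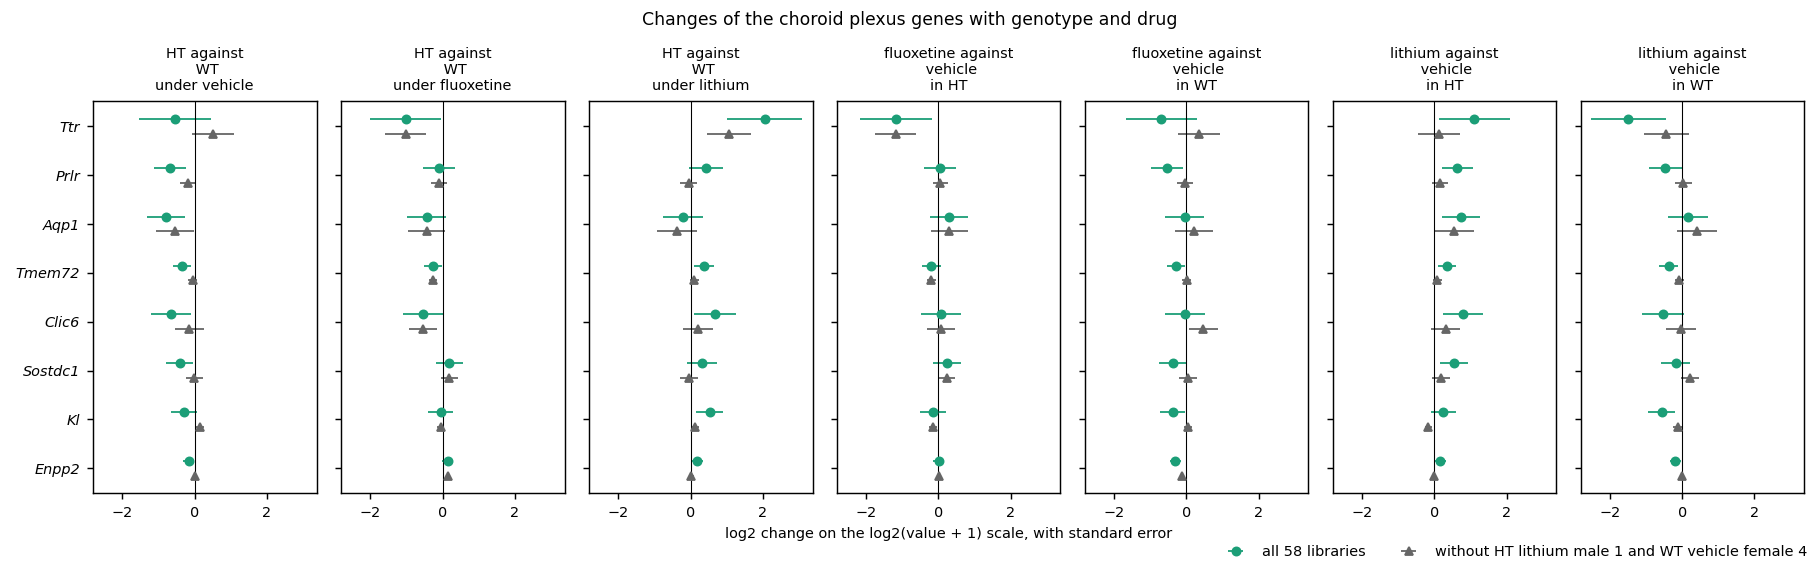
Log2 change of each of the 8 genes with its standard error in 7 comparisons, with all 58 libraries (circles) and without HT lithium male 1 and WT vehicle female 4 (triangles). The circles lie on 1 side of 0 where 1 of the 2 libraries is in the groups compared, except for single genes, and the triangles lie nearer to 0 in those 5 panels for most genes.

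Leaving both libraries out narrowed the errors. The median standard error of the 8 genes for HT against WT under vehicle was 0.41 with all libraries and 0.23 without both. Difference tests between genotypes gave 0 of 8 calls for the fluoxetine effect and for the lithium effect, in each case against 0.0% of all genes. For the lithium effect in HT against that in WT, all 8 lay above 0 with a median of 0.78, and without both libraries the median was 0.15 with 6 above 0. At an unadjusted p of 0.05, edgeR gave 7 of the 8 for the lithium effect and 0 for the fluoxetine effect, DESeq2 gave 5 and 2, and limma gave 0 for each.

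Females against males over all groups gave 0 of 8 calls, against 0.114% of all genes, with a median of 0.04 and 5 of 8 above 0. The difference between sexes in each genotype and drug effect gave 0 of 8 calls in all 5 tests. The background was 0.0181% for fluoxetine against vehicle in WT and 0.0% for the other 4. The smallest p of the 8 genes in these tests was that of Aqp1 for fluoxetine against vehicle in WT, where the female effect minus the male effect was -3.14 ± 1.07 (SE, limma adjusted p = 0.315). Aqp1 was 30.2, 20.4, 67.2, 45.8 and 13.7 in WT fluoxetine females, against 81.5, 141, 19.5, 394 and 89.9 in WT vehicle females. It was 153, 59.7, 190, 42.6 and 264 in WT fluoxetine males, against 11.3, 182, 68.5, 25.2 and 25.2 in WT vehicle males. The sets overlapped in each sex, and without both libraries the difference was -2.63 on the log2 scale. In the same test the olfactory bulb list had 0 of 10 genes above 0 and a median of -2.84, and with the olfactory bulb score as a covariate the Aqp1 difference was -1.50 ± 0.59 (SE, limma adjusted p = 0.712).

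The partners of the 8 genes in their pathways were read from lists chosen with the same results known. Of the lists for prolactin receptor signalling, insulin-like growth factor and klotho signalling, lysophosphatidic acid receptors and breakdown, BMP and Wnt partners of Sostdc1, thyroid hormone and retinol carriage, and water channels, 1 gene was called in 1 of the 15 comparisons. Socs3, which inhibits signalling downstream of the prolactin receptor and other cytokine receptors, fell in HT fluoxetine libraries, with a median of 71.6 (49.1 to 103) in 10 HT libraries and 94.3 (79.9 to 120) in 10 WT libraries. The change was -0.38 ± 0.10 (SE, limma adjusted p = 0.0442), against 0.994% of all genes called. The other 6 measured genes of that list did not pass, and Prlr itself stood at -0.10 ± 0.44 (SE). The call held in 18 of 33 alternatives, with adjusted p between 0.0138 and 0.158, and was lost in 11 of those that left out 1 library (adjusted p 0.0635 to 0.124). These were HT fluoxetine females 2, 3 and 4, HT fluoxetine males 1, 2 and 5, WT fluoxetine females 2, 3 and 4 and WT fluoxetine males 2 and 5. It was also lost in edgeR (adjusted p = 0.0532), and in limma with the choroid plexus covariate (0.0542), the olfactory bulb covariate (0.0585) and the compared groups alone (0.158).

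On the wider choroid plexus list, 1 of 21 genes tested was called in 1 of the 15 comparisons. Car12, a carbonic anhydrase of the cell surface, rose with lithium in HT, with a median of 330 (264 to 610) in 10 HT lithium libraries and 216 (172 to 394) in 10 HT vehicle libraries. The change was 0.65 ± 0.15 (SE, limma adjusted p = 0.0291), against 0.385% of all genes called. HT lithium male 1 had 610 Car12 reads, and without it the change was 0.56 with adjusted p = 0.0706, while without both libraries it was 0.56 ± 0.13 (SE, adjusted p = 0.0473). The call was also lost without HT lithium female 2 (adjusted p = 0.0654), HT lithium female 5 (0.0602), HT vehicle female 2 (0.0528) or HT vehicle male 4 (0.0587), by limma in each case. It was lost with the choroid plexus score as a covariate, at 0.53 (limma adjusted p = 0.0606), and with the compared groups alone (0.0738). It held in 26 of 33 alternatives.

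The marker lists of ependymal cells, leptomeningeal fibroblasts, oligodendrocytes, striatal neurons, olfactory bulb, hippocampus, thalamus, cortical neurons, blood and endothelium had 0 calls in the 15 limma comparisons. The olfactory bulb list, with which Aqp1 varied, had all 10 genes below 0 for HT against WT, with medians of -0.85 under vehicle, -0.97 under fluoxetine and -1.10 under lithium. Aqp1 stood at -0.79 ± 0.53, -0.44 ± 0.53 and -0.21 ± 0.57 (SE, limma) in these comparisons, in the same order of drugs. With the olfactory bulb score as a covariate, Aqp1 stood at -0.18 ± 0.29 under vehicle (SE, limma). It stood at 0.17 ± 0.29 under fluoxetine and 0.49 ± 0.31 under lithium. None was called (limma adjusted p = 0.999, 0.818 and 0.778, in the same order), so no sign is settled.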

How the data were processed

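RNA of prefrontal cortex was sequenced in 58 libraries of 12 groups, taken from the sample titles. Per the labels, the TruSeq Stranded mRNA kit was used. The unit of the deposited table is a linear signal: the authors scaled each library's read counts by a single size factor. The submitters' processing notes list Salmon 0.11.2, R 3.6.0, DESeq2 1.19.11 and the build GRCm38. The handling of reads shared by several genes is not given in these sources. Dividing by the smallest step of each library turned 100% of values into whole reads (tolerance 0.0001). Size factors ran from 0.787 to 1.23. GENCODE M21 named 18077 of 18088 gene IDs.

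Differences were tested with limma 3.58.1 (mean-variance trend) in R 4.3.3 on log2(value + 1) for 16606 genes with a mean of at least 10, with 12 group means (46 residual degrees of freedom) and Benjamini-Hochberg adjustment. This scale understates changes of low genes. edgeR 4.0.16 (17757 genes) and DESeq2 1.42.0 were run on recovered reads. The fit was tested on simulated data. The alternatives were 2 pseudocounts (0.5 and 5), a minimum mean of 50 and none, upper-quartile scaling, array weights, the replicate number as a block, the compared groups alone, a covariate and leaving out each library. Leaving out both choroid-rich libraries and an olfactory bulb covariate were added after seeing the data. Intervals for the ratio of 2 libraries are exact at 95% and cover counting error.

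Named genes were the 8 genes, their libraries above 5 times the median, the smallest p per comparison, the 10 most alike genes, called list members and the 3 most abundant genes of the wider list. The 8 genes and the lists were chosen with earlier results of these data known. In 2 WT lithium male libraries the number in the title differs from that in the library name, and the title was used. Same-numbered libraries of different groups did not deviate together (309 pairs, median r = 0.002), against -0.004 in 1232 pairs with different numbers, so numbers were not taken as pairs.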

Additional observations from a re-analysis of the deposited data

Results flagged for a closer look

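For each of the 8 genes and 12 groups, the library farthest from the rest was compared with the range of its group, on the log2 scale, by Dixon's ratio. Of 96 such tests, 18 passed the 95% critical value of a single test. The tests share libraries, so this total was not weighed against chance. HT lithium male 1 stood apart in 5 genes, with 620 for Tmem72, 540 for Clic6, 157 for Sostdc1, 899.7 for Kl and 20404 for Enpp2. WT vehicle female 4 stood apart in 6 genes, with 29769 for Ttr, 413 for Prlr, 671 for Tmem72, 560 for Clic6, 1045 for Kl and 23175 for Enpp2. Ttr and Prlr in HT lithium male 1 and Sostdc1 in WT vehicle female 4 were not flagged, though each ranked among the 2 highest of 58 libraries. The flags of these 2 libraries rest on the same values that set them apart above and are no further support.

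The remaining 7 flags were likewise not weighed against chance. Aqp1 stood high at 192 in HT fluoxetine male 2 and at 115 in HT vehicle male 5. Tmem72 stood low at 78.0 in HT vehicle male 4 and at 75.6 in WT fluoxetine female 5. Sostdc1 stood high at 15.7 in WT fluoxetine female 1. Kl stood high at 67.1 in HT fluoxetine female 2 and at 67.5 in WT vehicle male 5. None of these 7 values came from HT lithium male 1 or WT vehicle female 4.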

How the results depend on the processing

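The number of the 8 genes called was 0 in all 15 comparisons under the limma alternatives and edgeR, including each library left out (range 0 to 0), the choroid plexus and olfactory bulb covariates, and the replicate block, which gave 0 of 8 in each comparison. The block also changed no direction of the named gene. The choroid plexus score was the mean of these same 8 genes, so the 0 of 8 with that covariate is no independent check. DESeq2 called none of the genes it gave an adjusted p, but it gave none for 2 of the 8 in 11 comparisons, for 3 or 4 in 3 comparisons, and for 7 in 1 (the sex difference of fluoxetine in WT). Ttr and Kl had no DESeq2 p in any comparison. Upper-quartile scaling moved the highest Ttr library over the median to 2643, against 2566, and scaling by total reads to 2667. For Enpp2 these were 3.69 and 3.66, against 3.59.

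The count of all genes called was less steady. DESeq2 called 9 genes for HT against WT under vehicle (3 with limma), 18 for fluoxetine in HT (0), 209 for fluoxetine in WT (61), 166 for lithium in HT (64) and 38 for lithium in WT (5). Without both choroid-rich libraries, limma called 103 for fluoxetine in WT and 0 for lithium in WT. With the choroid plexus score as a covariate it called 29 for lithium in HT and 3 for lithium in WT. Leaving out each library gave 3 to 4 for HT against WT under vehicle, 0 to 2 for fluoxetine in HT, 18 to 347 for fluoxetine in WT, 25 to 84 for lithium in HT and 0 to 44 for lithium in WT. The cause was not tested. Single libraries moved these counts by over 1.5 times. For fluoxetine in WT, 347 were called without WT fluoxetine male 1, 175 without WT fluoxetine female 1, 92 without WT vehicle female 4, and 18 to 34 without each of WT fluoxetine females 3, 4 and 5, WT fluoxetine males 2, 3 and 5, WT vehicle females 1, 2 and 5 and WT vehicle males 2 and 3. For lithium in HT, 26 were called without HT lithium female 5, 25 without HT lithium male 3, and 36 without HT vehicle male 2 or 4. For lithium in WT each of 18 libraries moved the count, which was 0 without WT vehicle female 4 and 44 without WT lithium female 4. For fluoxetine in HT, 2 were called without HT fluoxetine female 4 or male 5, and 1 without HT vehicle female 4, male 1 or male 3. Depth limits Sostdc1, Ttr and Prlr most, at medians of 10, 10.5 and 13 raw reads.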
